A study of Homo sapiens with 17 samples.

Results

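The genes described here are 33 human genes of fatty acid uptake and oxidation, out of 20218 genes in the deposited expression table. They were chosen as a list by their known roles in taking up long-chain fatty acids, activating them, carrying them into mitochondria, oxidising them and regulating that flow. The list was drawn up with earlier results of these data known, so counts of members set beside those of all genes are descriptive. All 33 were found in the table, and all 33 met the condition for being tested, a level of 1 FPKM or more in 2 or more libraries, as did 14845 genes of the table. FPKM is the number of fragments scaled by transcript length and by library size, so that levels of different genes can be set side by side. No member was listed at 0 in any library.

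The libraries were made from H9, a human embryonic stem cell line, carrying a green fluorescent reporter at SHOX2, the transcription factor that marks developing sinoatrial node, and an mCherry reporter. The labels do not name the gene behind mCherry, which was taken here to be MYH6, the atrial myosin heavy chain, from knowledge of the study. Cells were differentiated and sorted at day 25 and day 40 into 3 populations. GFP+mCherry+ cells gave 3 libraries of day 25 but 2 of day 40. GFP-mCherry+ cells, spelled GFP-Mcherry+ in the labels, and GFP-mCherry- cells gave 3 of each day. Every sample carries the same cell type label, sinoatrial node-like cells. The growth protocol describes a cardiomyocyte procedure and a sinoatrial procedure that both start from CHIR99021, BMP4 and Activin A. The first goes on with XAV939, and the second with cucurbitacin, retinoic acid, SU5402, XAV939, Tyrphostin AG 490 and chidamide. Which procedure each sorted population came from is not said. All groups share 1 parent line, and nothing in the labels says that libraries of a group came from separate differentiations. The p-values therefore rest on library-to-library spread, and part or all of it may be technical.

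Long-chain fatty acids enter a muscle cell with the help of the scavenger receptor CD36 and fatty acid transport proteins, are held in the cytosol by the binding protein FABP3, and are activated to acyl-CoA. The carnitine shuttle moves them into mitochondria, where the beta-oxidation spiral shortens them step by step and hands electrons through electron transfer flavoprotein to the respiratory chain. The adult working myocardium is known for drawing most of its energy from this pathway, whereas fetal heart muscle and stem cell-derived cardiomyocytes lean more on glycolysis.

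SHOX2 was at 49.0, 138.9 and 87.4 FPKM in the 3 GFP+mCherry+ libraries of day 25 and at 58.5 and 90.2 FPKM in the 2 of day 40, and it was at 2.41 FPKM or less in the other 12 libraries. The reporter label on GFP was thus matched by its gene in every library. MYH6 was listed at 0 in 1 GFP-mCherry+ library of day 40 (library 17), in which the other cardiomyocyte genes were high. The 15 cardiomyocyte markers summed to between 8009 and 19397 FPKM in GFP+mCherry+ cells, between 32114 and 43291 in GFP-mCherry+ cells and between 938 and 1349 in GFP-mCherry- cells at day 25. At day 40 they summed to between 9008 and 15153 FPKM in GFP+mCherry+ cells, between 29844 and 44481 in GFP-mCherry+ cells and between 931 and 4423 in GFP-mCherry- cells. In sorted bulk samples like these, fewer cells of a type and less RNA per cell cannot be told apart. Libraries 13 and 14, a GFP+mCherry+ and a GFP-mCherry+ library of day 40, stood apart with 16493 and 16598 genes above 0, against at least 17108 in each other library. The member sums and the calls of day 40 between the mCherry+ populations are also given without them.

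The 33 members together were highest in the GFP-mCherry+ cells. Their FPKM summed to 1589 ± 98.4 in GFP+mCherry+ cells, 2656 ± 188 in GFP-mCherry+ cells and 1267 ± 166 in GFP-mCherry- cells at day 25 (SD, n = 3 each). At day 40 they summed to 1775 ± 22.7 FPKM in GFP+mCherry+ cells (n = 2), 2884 ± 255 FPKM in GFP-mCherry+ cells (n = 3) and 1368 ± 99.3 FPKM in GFP-mCherry- cells (n = 3). The libraries of the 3 populations did not overlap in this sum at either day. Without libraries 13 and 14 the sum of day 40 was 1759 FPKM in the GFP+mCherry+ library that is left, and 2966 and 3087 FPKM in GFP-mCherry+ cells. A pair of genes made up a large part of it: ACADVL, the very long chain acyl-CoA dehydrogenase, averaged 440 FPKM over the 17 libraries, and FABP3 averaged 336 FPKM. Without these, the sum was 959 ± 64.5 FPKM in GFP+mCherry+, 1588 ± 93.9 FPKM in GFP-mCherry+ and 885 ± 65.4 FPKM in GFP-mCherry- cells of day 25. GFP-mCherry+ cells then still lay apart, whereas GFP+mCherry+ (914.9 to 1033 FPKM) and GFP-mCherry- cells (844.5 to 960.8 FPKM) overlapped. At day 40 the sum without these 2 genes did not overlap between the populations. It was 991.5 to 1073 FPKM in GFP+mCherry+ (n = 2), 1500 to 1623 FPKM in GFP-mCherry+ and 803.0 to 973.3 FPKM in GFP-mCherry- cells. By group mean, GFP-mCherry+ was the highest of the 3 populations for 30 of the 33 members at day 25 and for 24 at day 40, while GFP+mCherry+ was the highest for 2 and 9. This order was not counted over all tested genes, so no share of these stands beside it.

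**Figure D1:**
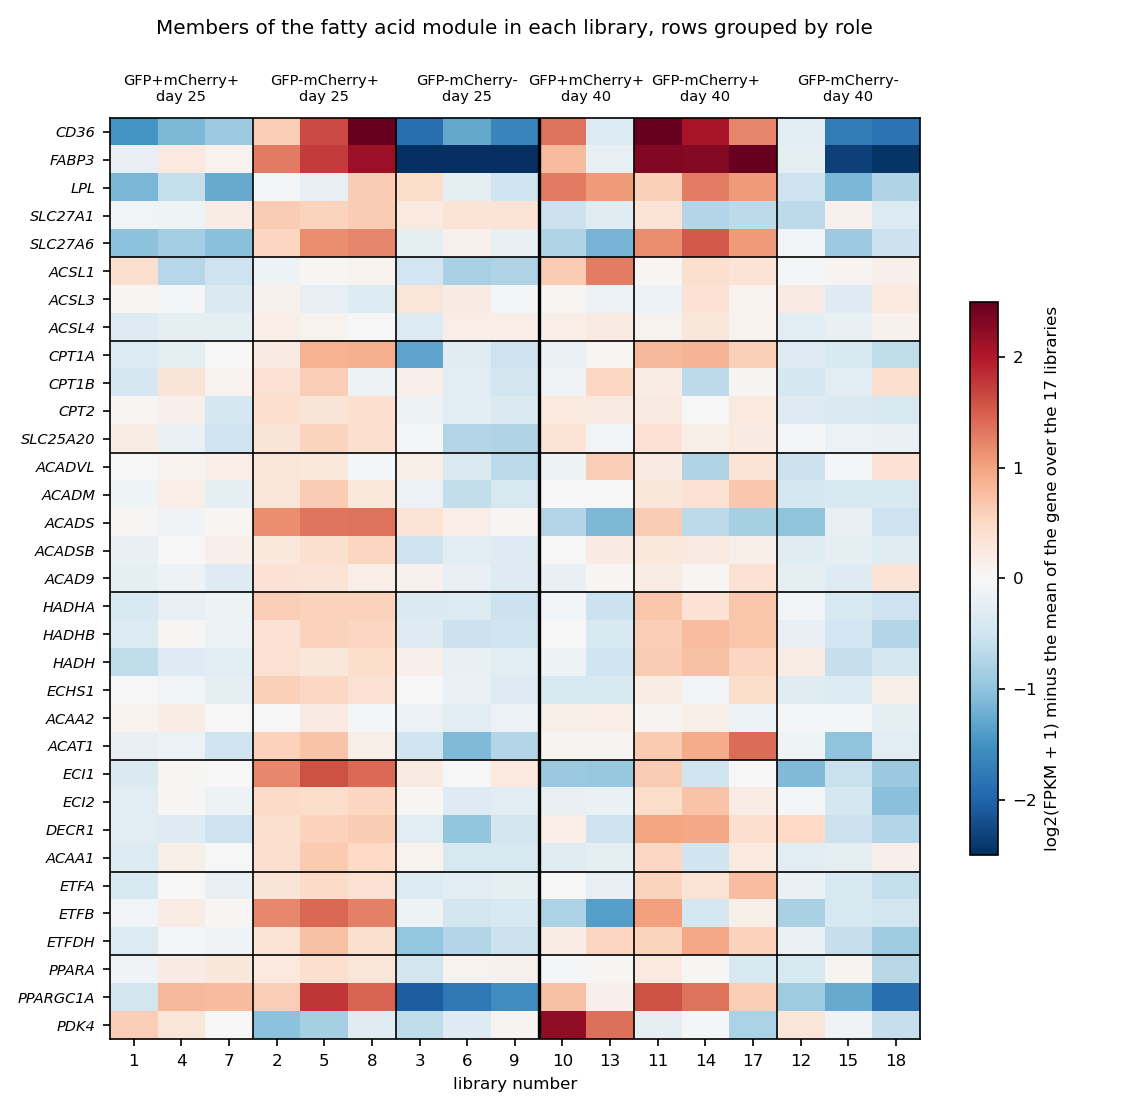
Heat map of the 33 members (rows, grouped by role) in the 17 libraries (columns, by population and day). Colours give log2(FPKM + 1) minus the gene's mean over the libraries and are capped at 2.5 in both directions. The GFP-mCherry+ columns are red in most rows at both days, and PDK4 in the last row is reddest in the 2 GFP+mCherry+ libraries of day 40.

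The members differed widely in how far they ranged. FABP3 ranged 42.7-fold between its lowest and highest library, CD36 42.2-fold, PDK4 36.2-fold and PPARGC1A 29.1-fold. At the other end, ACAA2, the mitochondrial thiolase of the last step of the spiral, ranged 1.44-fold, and the acyl-CoA synthetases ACSL4 and ACSL3 ranged 1.56-fold and 1.66-fold. The widest ranges were thus those of 2 uptake genes and 2 regulators, while SLC27A1 (2.91-fold) and PPARA (2.45-fold) of the same roles ranged less.

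The first comparison asks how the SHOX2-positive cells differ from the SHOX2-negative cells within the mCherry+ fraction. At day 25, 16 of the 33 members were lower in GFP+mCherry+ than in GFP-mCherry+ cells at an adjusted p under 0.05, where 8.38% of all 14845 tested genes were lower. PDK4 alone was higher, where 12.0% of tested genes were higher, and 20.4% of tested genes were called in either direction. The other 16 members did not pass the test, and the median difference of the members was -0.61 on the log2(FPKM + 1) scale, beside 0.06 for all tested genes. In 25 members every GFP+mCherry+ library lay below every GFP-mCherry+ library, as in 19.2% of tested genes, and in 1, PDK4, every library lay above, as in 23.0%. At day 40, 12 members were lower and PDK4 was again higher, where 9.29% and 16.2% of tested genes were (25.5% in either direction), and 20 members did not pass. Every GFP+mCherry+ library of day 40 lay below every GFP-mCherry+ library in 15 members, as in 18.9% of tested genes, and above in 2, PDK4 and ACSL1, as in 26.5%. All 12 members called lower at day 40 were among the 16 of day 25, and the median difference was -0.44 on the same scale, beside 0.08 for all tested genes. Beside these counts, 10 of the 15 cardiomyocyte markers were lower in GFP+mCherry+ cells at day 25 and 12 at day 40, with a median difference of -1.65 and -1.93. Fibroblast and matrix genes ran the other way: their 10 markers summed to between 14098 and 25538 FPKM in GFP+mCherry+ cells of day 25, against between 4484 and 6148 FPKM in GFP-mCherry+ cells, and 6 of 10 were higher at day 25 and 7 at day 40. The part of these markers' cells in the differences of the members was not tested.

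The count of day 40 rests on library 13. Without it, 1 member, SLC27A6, remained lower, and without libraries 13 and 14 there were 4, which were SLC27A6, HADHA, ECI1 and ETFB. Without both libraries FABP3, CPT1A, HADHB, HADH, ECHS1, ACAT1, DECR1 and ETFA did not pass, with differences between -1.64 and -0.52 and adjusted p between 0.0739 and 0.468, while PDK4 was still higher (2.73, adjusted p = 0.00238). At day 25 the count was 9 without GFP-mCherry+ library 5, and 10 without GFP+mCherry+ library 7 or without GFP-mCherry+ library 8. Of the 17 calls of day 25, 7 held under all 17 alternatives tried, those of CD36, SLC27A6, ACADS, HADHA, HADH, ECI1 and ETFB. Of the 13 calls of day 40, those of SLC27A6 and PDK4 held under all 16.

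**Figure D2:**
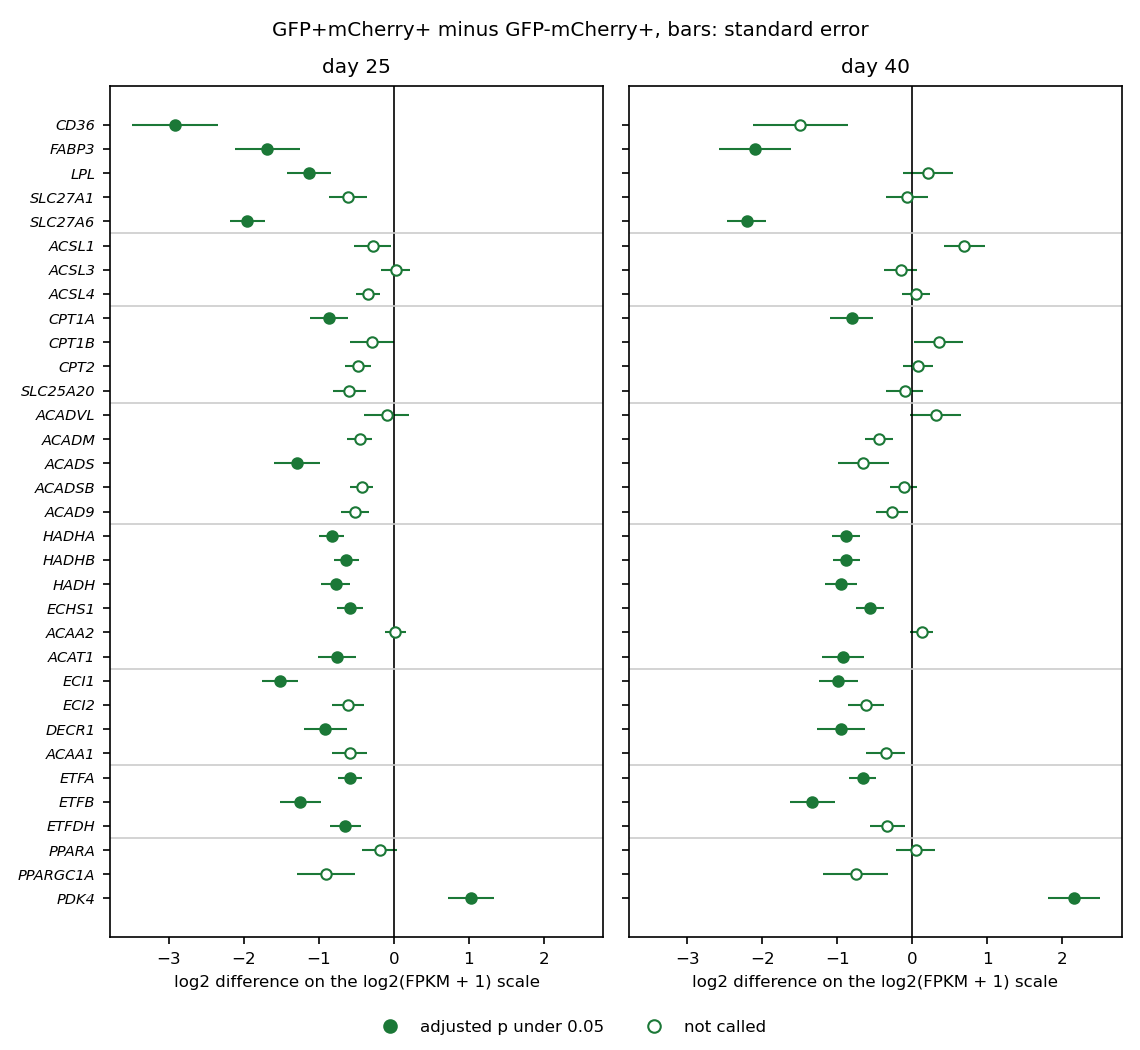
Difference between GFP+mCherry+ and GFP-mCherry+ cells for each member at day 25 (left) and day 40 (right), on the log2(FPKM + 1) scale, with limma's standard error as bars. Filled points passed at an adjusted p under 0.05. Most points lie left of 0 at both days, from CD36 at -2.92 at day 25, while PDK4 lies at 1.03 and 2.15.

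Among the 5 genes of uptake and binding, 4 were lower in GFP+mCherry+ cells at day 25 and 2 at day 40. FABP3, which carries fatty acids through the cytosol of heart muscle, was at 147, 201 and 183 FPKM in the GFP+mCherry+ libraries of day 25, against 423, 574 and 756 FPKM in the GFP-mCherry+ libraries. At day 40 it was at 294 and 148 FPKM in GFP+mCherry+ cells, against 848, 845 and 1001 FPKM in GFP-mCherry+ cells. The populations did not overlap at either day, and FABP3 was lower by limma at day 25 (log2 difference -1.69 ± 0.43, SE, adjusted p = 0.0128) and at day 40 (-2.10 ± 0.48, adjusted p = 0.00538). Without library 8 the difference of day 25 was -1.48 (adjusted p = 0.0574), and without library 13 that of day 40 was -1.60 (adjusted p = 0.116), and neither passed. The ratio of FABP3 to TNNT2, the cardiac troponin T gene, was 0.108 ± 0.034 in GFP+mCherry+ and 0.109 ± 0.0224 in GFP-mCherry+ cells of day 25 (SD, n = 3 each), a difference smaller than the spread between libraries. At day 40 that ratio was 0.0930 ± 0.0358 in GFP+mCherry+ (n = 2) and 0.141 ± 0.0179 in GFP-mCherry+ cells (n = 3), and the libraries did not overlap. In GFP-mCherry- cells the ratio was 0.199 ± 0.0432 at day 25 and 0.188 ± 0.0195 at day 40 (SD, n = 3 each). Every GFP-mCherry- library lay above every mCherry+ library of the same day in this ratio. No ratio to the other cardiomyocyte markers was taken.

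CD36, the membrane receptor that takes up long-chain fatty acids, was at 2.98, 4.12 and 4.94 FPKM in the GFP+mCherry+ libraries of day 25, against 16.1, 34.0 and 85.9 FPKM in the GFP-mCherry+ libraries. These groups lay well apart, although the GFP-mCherry+ libraries themselves spread widely, and the log2 difference was -2.92 ± 0.57 (SE, limma adjusted p = 0.00291). At day 40 CD36 was at 27.7 and 7.89 FPKM in GFP+mCherry+ cells, against 74.0, 45.5 and 25.0 FPKM in GFP-mCherry+ cells. Library 10 of the GFP+mCherry+ cells then exceeded the lowest GFP-mCherry+ library, and the difference of -1.49 ± 0.64 did not pass (adjusted p = 0.0967).

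SLC27A6, a fatty acid transport protein known for its abundance in heart, gave the smallest adjusted p of the members between the mCherry+ populations at both days. Its level was 12.3, 14.2 and 12.2 FPKM in GFP+mCherry+ cells of day 25, against 38.6, 60.0 and 62.8 FPKM in GFP-mCherry+ cells. At day 40 it was 15.1 and 11.1 FPKM in GFP+mCherry+ cells, against 60.1, 77.3 and 55.7 FPKM in GFP-mCherry+ cells. The 2 populations were far apart at each day, with log2 differences of -1.95 ± 0.23 (SE, limma adjusted p = 0.000154) and -2.21 ± 0.26 (adjusted p = 0.000103), and SLC27A6 stayed called under all 17 alternatives of day 25 and all 16 of day 40. It was the only member that was lower in GFP+mCherry+ than in GFP-mCherry- cells at day 25, where GFP-mCherry- libraries held 22.0, 28.5 and 23.0 FPKM (-0.87 ± 0.23, adjusted p = 0.0247). That call ended when library 1, 6, 7 or 9 was left out. The table's SLC27A6 locus, at 127873706 to 128369335 on chromosome 5 (hg19), overlaps that of FBN2, and whether counting used strand is not given in the sources used here.

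LPL, lipoprotein lipase, which frees fatty acids from circulating lipoproteins, was low everywhere. It was at 0.658, 1.43 and 0.534 FPKM in GFP+mCherry+ cells of day 25, against 2.58, 2.19 and 4.65 FPKM in GFP-mCherry+ cells, without overlap (-1.13 ± 0.30, SE, limma adjusted p = 0.0148; not called without library 7 or library 8). Its level at day 40 was 7.98 and 6.59 FPKM in GFP+mCherry+ cells, against 4.49, 7.83 and 6.59 FPKM in GFP-mCherry+ cells, and these overlapped. SLC27A1, another transport protein, had differences of -0.61 ± 0.26 and -0.07 ± 0.29 at the 2 days and passed at neither.

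In the deposited table's hg19 coordinates, CD36 spans 79998891 to 80308593 on chromosome 7, FABP3 31838472 to 31849697 on chromosome 1, ECI1 2289396 to 2302301 and ETFB 51848423 to 51869672 on chromosomes 16 and 19, PPARGC1A 23756664 to 23905712 on chromosome 4 and PDK4 95212811 to 95225803 on chromosome 7. Promoters were read for members that carried the contrasts between populations: SLC27A6, the member with the smallest adjusted p between the mCherry+ populations, PDK4, the member with the opposite sign, and HADHA, which shares its upstream region with HADHB. Each run below gives the 250 bases before the start site on the gene's own strand, from RefSeq on GRCh38.p14, with every match to the GC box GGGCGG, on either strand, in capitals. SLC27A6 is at chr5:128965238-128965487 (plus strand), PDK4 at chr7:95596517-95596766 (minus strand) and HADHA at chr2:26244633-26244882 (minus strand).
SLC27A6: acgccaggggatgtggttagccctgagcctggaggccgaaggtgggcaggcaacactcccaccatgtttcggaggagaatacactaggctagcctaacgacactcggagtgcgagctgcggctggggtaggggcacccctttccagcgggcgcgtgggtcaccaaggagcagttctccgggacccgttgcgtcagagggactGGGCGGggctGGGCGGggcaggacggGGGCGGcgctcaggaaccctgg
PDK4: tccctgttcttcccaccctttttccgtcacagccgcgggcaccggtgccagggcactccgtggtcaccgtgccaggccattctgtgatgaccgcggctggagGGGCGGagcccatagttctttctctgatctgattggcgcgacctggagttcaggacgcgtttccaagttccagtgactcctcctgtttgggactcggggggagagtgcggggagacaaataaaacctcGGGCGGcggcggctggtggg
HADHA: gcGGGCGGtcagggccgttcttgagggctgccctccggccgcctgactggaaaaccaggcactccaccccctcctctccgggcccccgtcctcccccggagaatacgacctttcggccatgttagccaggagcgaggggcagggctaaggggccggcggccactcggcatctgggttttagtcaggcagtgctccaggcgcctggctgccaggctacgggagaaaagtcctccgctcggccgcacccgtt

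SLC27A6 holds 3 such boxes, which begin at positions -48, -38 and -22 counted from the start site. PDK4 holds 2, which begin at -148 and -20, and HADHA 1, which begins at -248. HADHA and HADHB start 306 bases apart on opposite strands, and the windows read (250 bases before and 50 after each start) share 194 bases, so the run printed for HADHA is in large part the upstream region of both. Of the 33 members, 28 had an entry in the promoter table, and ACAA1, CPT1B, DECR1, ETFDH and LPL had none. The GC box stood in 23 of these 28 (82.1%), where the first listed window of each gene was read, in 44.6% of all 27305 promoters and in 67.7% of the 10966 promoters of tested genes. The nuclear receptor element AGGTCA stood in 0 of the 28, in 13.9% of all promoters and in 9.86% of those of tested genes. The longer TCAAGGTCA, a form bound by oestrogen-related receptors, stood in 0 of the 28 and in 0.359% of all promoters. The direct repeat of AGGTCA with 1 base between stood in 0 of the 28 and in 0.0220% of all promoters. Both longer motifs contain AGGTCA, and a window without these letters says nothing of a factor bound elsewhere.

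The 3 acyl-CoA synthetases, which activate fatty acids, did not pass the test between the mCherry+ populations at either day. ACSL1, the main cardiac form, was at 58.6 and 92.6 FPKM in the GFP+mCherry+ libraries of day 40, against 38.9, 49.9 and 47.9 FPKM in the GFP-mCherry+ libraries. Both GFP+mCherry+ libraries were the higher ones, but the difference of 0.69 ± 0.27 did not pass (adjusted p = 0.0737). ACSL3 ranged between 63.7 and 105.7 FPKM and ACSL4 between 24.6 and 38.5 FPKM over all 17 libraries.

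Of the 4 genes of the carnitine shuttle, CPT1A was the one that differed. CPT1A and CPT1B encode the liver and muscle forms of the enzyme that commits acyl-CoA to mitochondrial import. CPT1A was at 2.52, 2.75 and 3.41 FPKM in GFP+mCherry+ cells of day 25, against 4.14, 7.17 and 7.31 FPKM in GFP-mCherry+ cells (-0.86 ± 0.26, SE, limma adjusted p = 0.0270). At day 40 it was at 2.94 and 3.58 FPKM in GFP+mCherry+ cells, against 6.78, 6.97 and 5.70 FPKM in GFP-mCherry+ cells (-0.81 ± 0.29, adjusted p = 0.0480). The groups did not overlap at either day, but CPT1A stayed called under 12 of 17 alternatives at day 25 and 5 of 16 at day 40. CPT1B was far more abundant, between 28.1 and 69.0 FPKM, with differences of -0.29 ± 0.29 and 0.35 ± 0.33 that did not pass. CPT1A thus made up 6.13 ± 1.29% of CPT1A plus CPT1B in GFP+mCherry+ cells and 10.4 ± 4.32% in GFP-mCherry+ cells at day 25, and 5.89 ± 0.878% (n = 2) and 14.2 ± 4.96% at day 40 (SD). In this share the libraries overlapped at day 25, with GFP-mCherry+ library 2 at 6.65% and GFP+mCherry+ library 1 at 7.02%. At day 40 they did not overlap. The CPT1B locus overlaps the readthrough row CHKB-CPT1B over 10602 bases, so that fragments may have been divided between them. CPT2, which reverses the reaction inside mitochondria, and SLC25A20, the carnitine carrier, had differences between -0.59 and 0.07 that did not pass.

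Acyl-CoA dehydrogenases open each turn of the spiral, and several of them differ in the chain length they act on. ACADVL, the most abundant member, did not pass between the mCherry+ populations at either day (-0.09 ± 0.30 and 0.31 ± 0.34). ACADS, for short chains, was the 1 of 5 that was lower at day 25: it was at 7.33, 6.61 and 7.46 FPKM in GFP+mCherry+ cells, against 17.2, 19.7 and 19.9 FPKM in GFP-mCherry+ cells. These groups lay well apart (-1.29 ± 0.31, SE, limma adjusted p = 0.00893), and ACADS stayed called under all 17 alternatives. Its level at day 40 was 3.87 and 2.72 FPKM in GFP+mCherry+ cells, against 11.7, 4.16 and 3.60 FPKM in GFP-mCherry+ cells, which overlapped (-0.65 ± 0.34, adjusted p = 0.176). ACADM, ACADSB and ACAD9 had differences between -0.52 and -0.12 over both days, and none passed.

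Of the 6 genes of the later steps of the spiral, 5 were lower at both days. The trifunctional protein, a complex of HADHA and HADHB that hydrates, oxidises and cleaves long acyl chains, was lower in both of its subunits. HADHA was at 54.6, 61.5 and 64.8 FPKM in GFP+mCherry+ cells of day 25, against 110.0, 106.0 and 107.2 FPKM in GFP-mCherry+ cells, and at 67.6 and 48.9 FPKM in GFP+mCherry+ cells of day 40, against 115.0, 91.6 and 116.2 FPKM in GFP-mCherry+ cells. HADHB was at 62.4, 80.6 and 72.4 FPKM in GFP+mCherry+ cells of day 25, against 102.0, 117.5 and 115.3 FPKM in GFP-mCherry+ cells, and at 79.8 and 60.2 FPKM in GFP+mCherry+ cells of day 40, against 121.8, 135.8 and 128.2 FPKM in GFP-mCherry+ cells. Neither gene's populations overlapped at either day. The log2 differences of HADHA were -0.83 ± 0.17 (SE, limma adjusted p = 0.00344) and -0.88 ± 0.19 (adjusted p = 0.00322). Those of HADHB were -0.63 ± 0.17 (adjusted p = 0.0143) and -0.88 ± 0.19 (adjusted p = 0.00325). Without library 13 neither passed at day 40, with differences of -0.65 for HADHA (adjusted p = 0.0839) and -0.68 for HADHB (adjusted p = 0.0788). HADHB of day 25 did not pass without library 1, 5 or 8.

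The ratio of HADHA to HADHB stayed between 0.83 and 1.00 as a group mean in all 6 groups. In single libraries it ran from 0.675 (library 14) to 1.08 (library 2). By group mean both subunits thus kept close to equal FPKM while their levels differed. The loci of the 2 genes overlap over 1557 bases in the table. HADH (for shorter chains), ECHS1 (the short-chain hydratase) and ACAT1 (the mitochondrial acetoacetyl-CoA thiolase) were lower too, by between 0.57 and 0.95 on the log2(FPKM + 1) scale over both days, with adjusted p between 0.00524 and 0.0418. ACAA2 did not pass, at 40.2, 43.1 and 38.3 FPKM in GFP+mCherry+ cells of day 25 and 38.2, 44.5 and 37.2 FPKM in GFP-mCherry+ cells (0.02 ± 0.14).

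Of the 4 auxiliary and peroxisomal enzymes, ECI1 and DECR1, which prepare unsaturated fatty acids for the spiral, were lower at both days. ECI1 was at 26.9, 35.2 and 34.2 FPKM in GFP+mCherry+ cells of day 25, against 80.5, 106.4 and 94.2 FPKM in GFP-mCherry+ cells. The populations were far apart (-1.52 ± 0.24, SE, limma adjusted p = 0.000738). At day 40 ECI1 was at 17.7 and 17.5 FPKM in GFP+mCherry+ cells, against 54.3, 24.4 and 34.7 FPKM in GFP-mCherry+ cells, still without overlap (-0.99 ± 0.26, adjusted p = 0.0123). DECR1 was lower by 0.91 ± 0.29 at day 25 (adjusted p = 0.0335) and by 0.95 ± 0.32 at day 40 (adjusted p = 0.0384), but without libraries 13 and 14 its difference at day 40 was -0.52 (adjusted p = 0.468). ECI2 and ACAA1 had negative differences at both days that did not pass, the closest being ECI2 at day 25 (-0.62 ± 0.21, adjusted p = 0.0509).

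All 3 genes of electron transfer were lower at day 25, and ETFA and ETFB also at day 40. ETFA and ETFB encode the subunits of electron transfer flavoprotein, and ETFDH the enzyme that passes its electrons to ubiquinone. ETFB was at 51.2, 61.2 and 55.5 FPKM in GFP+mCherry+ cells of day 25, against 125.2, 147.9 and 129.8 FPKM in GFP-mCherry+ cells (-1.25 ± 0.27, SE, limma adjusted p = 0.00554). At day 40 it was at 30.9 and 20.2 FPKM in GFP+mCherry+ cells, against 111.0, 40.1 and 60.0 FPKM in GFP-mCherry+ cells (-1.33 ± 0.30, adjusted p = 0.00520). No library of either day overlapped between the populations. ETFA, its partner, was lower by 0.59 ± 0.16 and 0.66 ± 0.18 (adjusted p = 0.0174 and 0.0131). The subunits of this complex did not keep 1 ratio: ETFA over ETFB was 1.78 ± 0.084 in GFP+mCherry+, 1.12 ± 0.0375 in GFP-mCherry+ and 2.21 ± 0.334 in GFP-mCherry- cells of day 25 (SD, n = 3 each), and 4.29 ± 0.815 (n = 2), 2.80 ± 1.13 and 2.47 ± 0.763 at day 40. ETFB has a transcript GC content of 56.5% and ETFA of 43.2%, and the part of GC content in these ratios was not tested. Changes of the members between the days by GC content are given further on.

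**Figure D3:**
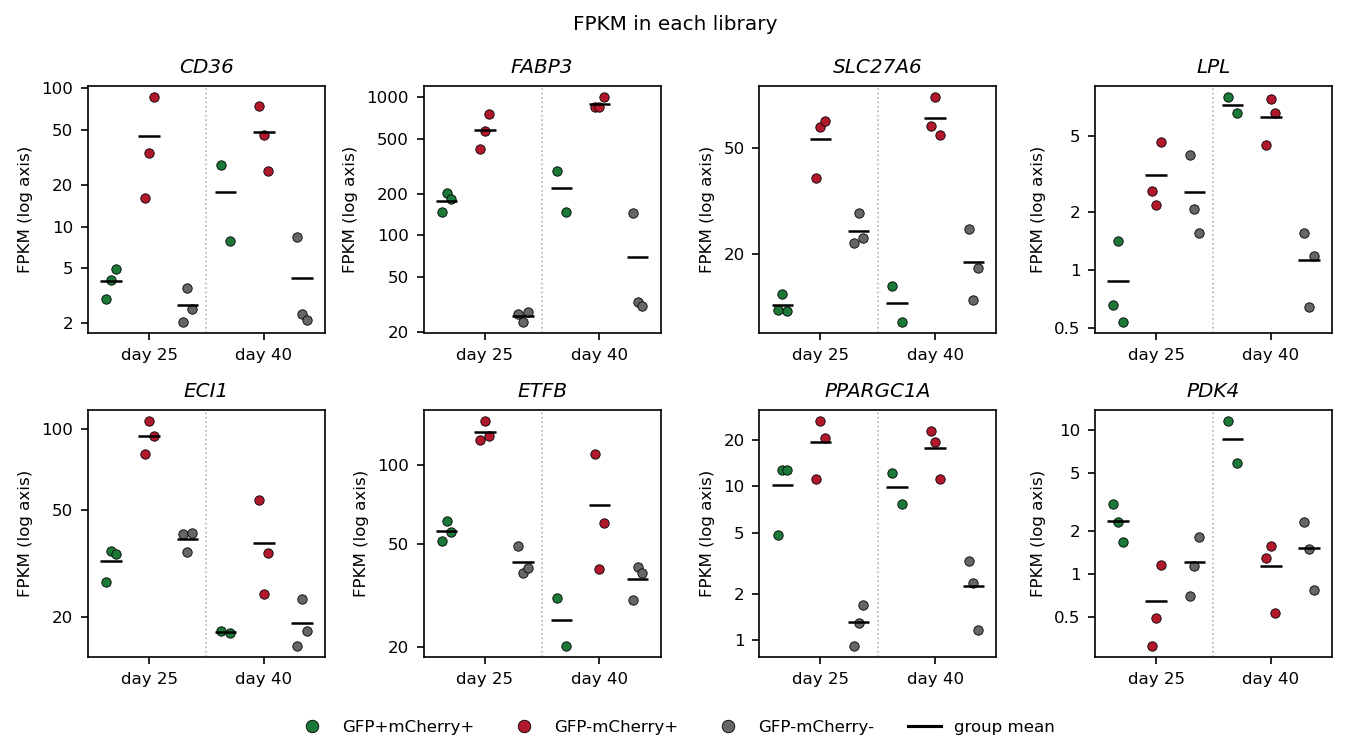
FPKM on a log axis in each library (points) and group means (lines) for 8 members at day 25 and day 40, with GFP+mCherry+ left, GFP-mCherry+ in the middle and GFP-mCherry- right at each day. GFP+mCherry+ points of FABP3, SLC27A6, ECI1 and ETFB lie below the GFP-mCherry+ points at both days, and those of PDK4 lie above.

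Of the 3 regulators, PDK4 was higher in GFP+mCherry+ cells. PDK4 phosphorylates and inactivates pyruvate dehydrogenase, which holds back the entry of glucose carbon into mitochondria, and it is known as a target of fatty acid-sensing nuclear receptors. It was at 3.06, 2.31 and 1.66 FPKM in GFP+mCherry+ cells of day 25, against 0.316, 0.499 and 1.15 FPKM in GFP-mCherry+ cells. Its level at day 40 was 11.4 and 5.89 FPKM in GFP+mCherry+ cells, against 1.29, 1.56 and 0.540 FPKM in GFP-mCherry+ cells. The groups did not overlap, and the log2 difference was 1.03 ± 0.31 at day 25 (SE, limma adjusted p = 0.0278) and 2.15 ± 0.34 at day 40 (adjusted p = 0.000651). At these low levels the added 1 FPKM compresses the difference. The call of day 40 held under all 16 alternatives, and that of day 25 under 11 of 17, being lost without library 1, 2, 4 or 5.

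The other pyruvate dehydrogenase kinases, which are not members, ran the other way. PDK1 was at 92.5 ± 41.9 FPKM in GFP+mCherry+ and 266.3 ± 31.7 FPKM in GFP-mCherry+ cells of day 25 (SD, n = 3 each), and at 69.1 ± 45.2 FPKM in GFP+mCherry+ (n = 2) and 253.7 ± 62.7 FPKM in GFP-mCherry+ cells (n = 3) of day 40. PDK1 was lower by 1.63 ± 0.37 and by 2.00 ± 0.42 on the log2(FPKM + 1) scale (SE, limma adjusted p = 0.00722 and 0.00312). PDK2 was lower by 0.82 ± 0.22 and by 1.21 ± 0.25 (adjusted p = 0.0166 and 0.00263), and PDK3 by 0.88 ± 0.26 at day 25 (adjusted p = 0.0237). PDK4 was the least abundant of the 4 in GFP-mCherry+ cells and remained below PDK1, PDK2 and PDK3 in the means of GFP+mCherry+ cells too.

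**Figure D4:**
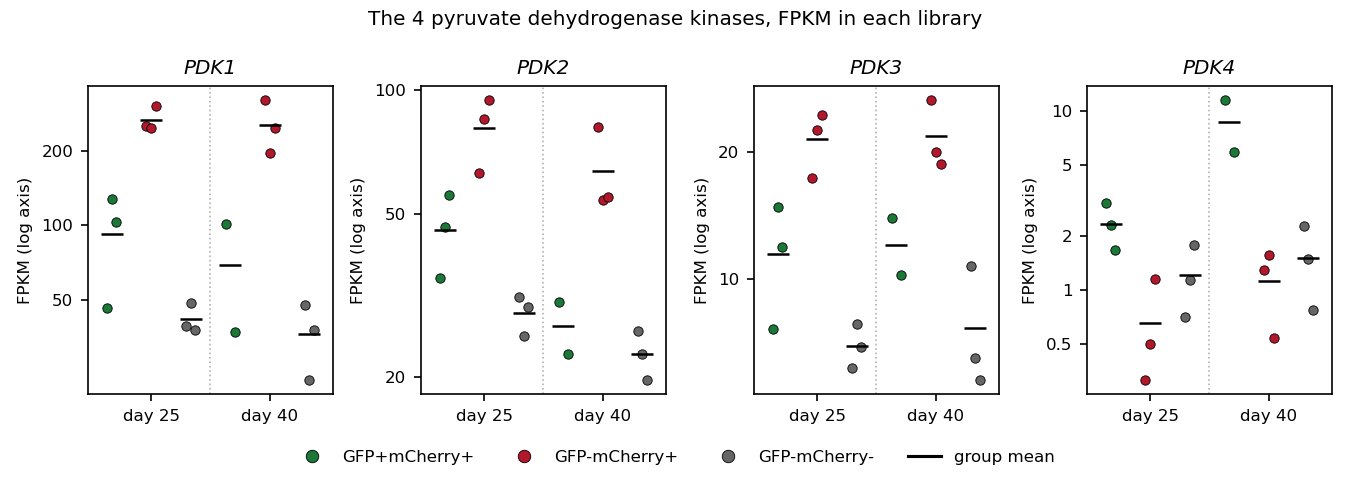
FPKM on a log axis of the 4 pyruvate dehydrogenase kinases in each library (points) with group means (lines), GFP+mCherry+ left, GFP-mCherry+ in the middle and GFP-mCherry- right at each day. PDK1, PDK2 and PDK3 are highest in GFP-mCherry+ cells, whereas PDK4 is highest in GFP+mCherry+ cells, at 11.4 and 5.89 FPKM at day 40.

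PPARGC1A, the coactivator PGC-1 alpha that drives mitochondrial gene programmes, was at 4.81, 12.9 and 12.8 FPKM in GFP+mCherry+ cells of day 25, against 11.1, 26.5 and 20.7 FPKM in GFP-mCherry+ cells. Those groups overlapped, and the difference of -0.90 ± 0.39 did not pass (adjusted p = 0.112). PPARA, the nuclear receptor for fatty acids, stayed between 3.79 and 9.29 FPKM over all 17 libraries and passed in no comparison.

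The next comparison sets SHOX2-negative mCherry+ cells against cells with neither reporter. At day 25, 22 of the 33 members were higher in GFP-mCherry+ than in GFP-mCherry- cells, where 12.1% of tested genes were, 0 were lower, where 16.4% were, and 11 did not pass (28.5% of tested genes were called in either direction). At day 40, 19 were higher, where 13.3% of tested genes were, 0 were lower, where 18.5% were, and 14 did not pass (31.9% in either direction). The 2 days had 17 of these genes in common, and 16 of the 22 and 14 of the 19 held under all 17 alternatives. The median difference of the members was 0.76 and 0.81 on the log2(FPKM + 1) scale, beside -0.10 and -0.09 for all tested genes. This comparison shares the GFP-mCherry+ libraries with the one above, so the opposite signs of the 2 comparisons are not separate evidence. All 15 cardiomyocyte markers were higher at day 25, and 14 at day 40.

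FABP3 differed most, at 423, 574 and 756 FPKM in GFP-mCherry+ cells of day 25 against 26.8, 23.5 and 27.9 FPKM in GFP-mCherry- cells (4.40 ± 0.43, SE, limma adjusted p = 3.25e-06). At day 40 the GFP-mCherry- libraries were at 144.6, 32.9 and 30.5 FPKM, of which library 12 stood out, and the difference was 4.06 ± 0.43 (adjusted p = 1.03e-05). Library 12 also had the highest sum of cardiomyocyte markers among the GFP-mCherry- libraries, at 4423 FPKM. CD36 was at 2.04, 3.60 and 2.55 FPKM in GFP-mCherry- cells of day 25 and lower than in each GFP-mCherry+ library, with differences of 3.34 ± 0.57 and 3.29 ± 0.57 at the 2 days (adjusted p = 0.000393 and 0.000431).

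PPARGC1A was higher by 3.09 ± 0.39 in GFP-mCherry+ than in GFP-mCherry- cells of day 25 (SE, limma adjusted p = 2.92e-05), where GFP-mCherry- libraries held 0.912, 1.29 and 1.70 FPKM. At day 40 it was higher by 2.52 ± 0.39 (adjusted p = 0.000177). All 3 electron transfer genes were higher at both days, by between 0.68 and 1.64, and so were both trifunctional subunits, by between 0.91 and 1.17. All 4 auxiliary and peroxisomal enzymes were higher at day 25, by between 0.67 and 1.25, and 3 of 4 at day 40. ACADVL, ACSL3, ACSL4, CPT1B, ACAD9, ACAA2, SLC27A1, PPARA and PDK4 passed at neither day.

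Between GFP+mCherry+ and GFP-mCherry- cells few members differed. At day 25 FABP3 and PPARGC1A were higher and SLC27A6 lower, 3 of 33 members, and 30 did not pass. Of tested genes, 5.78% were higher and 5.27% lower, 11.1% in all. At day 40, 6 members were higher, where 7.04% of tested genes were, and 0 lower, where 4.76% were (11.8% in either direction): FABP3, LPL, ACSL1, ETFDH, PPARGC1A and PDK4. The share of members called at day 25 is thus near that of all genes. PPARGC1A was at 4.81, 12.9 and 12.8 FPKM in GFP+mCherry+ cells of day 25, against 0.912, 1.29 and 1.70 FPKM in GFP-mCherry- cells, without overlap (2.19 ± 0.39, SE, limma adjusted p = 0.00187). At day 40 it was at 12.3 and 7.63 FPKM in GFP+mCherry+ cells, against 3.28, 2.34 and 1.16 FPKM in GFP-mCherry- cells (1.77 ± 0.43, adjusted p = 0.0153).

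FABP3 was higher in GFP+mCherry+ than in GFP-mCherry- cells by 2.71 ± 0.43 at day 25 and by 1.96 ± 0.48 at day 40 (SE, limma adjusted p = 0.000835 and 0.0155). PDK4 of day 40 was higher by 1.92 ± 0.34 (adjusted p = 0.00237), and its GFP-mCherry- libraries held 2.29, 1.49 and 0.778 FPKM. ETFDH and ACSL1 were higher by 0.91 ± 0.23 and 0.90 ± 0.27 (adjusted p = 0.0194 and 0.0422), and neither passed without library 13. The count of 6 was 3 without library 13 and 2 without library 18, and the calls of LPL and PDK4 were those that held under all 16 alternatives. In these cells 11 of the 15 cardiomyocyte markers were higher than in GFP-mCherry- cells at day 25 and 8 at day 40, with a median difference of 3.25 and 1.96, where the median of the members was 0.21 and 0.31.

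Between the days, 3 members rose in GFP+mCherry+ cells, where 2.18% of tested genes rose, and 1 fell, where 1.88% fell (4.06% in either direction). LPL was at 7.98 and 6.59 FPKM at day 40, against 0.658, 1.43 and 0.534 FPKM at day 25 (2.17 ± 0.33, SE, limma adjusted p = 0.000938). PDK4 was at 11.4 and 5.89 FPKM at day 40, against 3.06, 2.31 and 1.66 FPKM at day 25 (1.49 ± 0.34, adjusted p = 0.0215). ACSL1 was at 58.6 and 92.6 FPKM at day 40, against 49.6, 22.4 and 25.7 FPKM at day 25 (1.24 ± 0.27, adjusted p = 0.0161). In all 3 genes both libraries of day 40 lay above those of day 25. The rise of LPL held under all 15 alternatives, those of PDK4 and ACSL1 under 10 of 15 each: the call of PDK4 was lost without library 4, 7 or 10 and that of ACSL1 without library 4, 7 or 13.

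LPL also gave the 1 member whose difference between populations changed between the days. GFP+mCherry+ minus GFP-mCherry- was -0.89 ± 0.30 at day 25, which did not pass (adjusted p = 0.0657), and 1.98 ± 0.33 at day 40 (SE, limma adjusted p = 0.0015). The change of 2.87 ± 0.45 passed (adjusted p = 0.00561), where 1.24% of tested genes did, 0.977% upward and 0.263% downward. This contrast was added after the values had been seen. In the changes between the days of GFP+mCherry+ against GFP-mCherry+ and of GFP-mCherry+ against GFP-mCherry-, 0 members passed by limma, where 0.0135% and 0.00674% of tested genes did, and 3 and 2 members had an unadjusted p under 0.05. Differences of the other members at 1 day and not at the other are therefore not shown to change with time.

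Markers of macrophages were higher at day 40 than at day 25 in GFP+mCherry+ cells, as LPL was. The 6 markers of macrophages and blood, CD68, CSF1R, PTPRC, SPI1, CD14 and CD163, summed to 172.3 and 75.8 FPKM in GFP+mCherry+ cells of day 40, against 16.6, 19.6 and 15.2 FPKM at day 25, and all 6 were called higher at day 40. They summed to between 23.3 and 35.0 FPKM in GFP-mCherry+ and between 14.1 and 26.8 FPKM in GFP-mCherry- cells of day 40. LPL was at 4.49, 7.83 and 6.59 FPKM in those GFP-mCherry+ libraries. Library 10, with the highest macrophage sum, also had the highest CD36, FABP3, LPL and PDK4 of the GFP+mCherry+ libraries. It was the highest of these libraries for SLC27A6, CPT2, SLC25A20, HADHA, HADH, DECR1 and ETFA as well. Library 13 had the higher ACSL1 of the 2 libraries of day 40. Of these 2 libraries, library 10 also had the higher cardiomyocyte sum, 15153 FPKM against 9008 FPKM. CD36 and FABP3 had higher means in GFP-mCherry+ cells of day 40 (48.2 and 898 FPKM) than in GFP+mCherry+ cells (17.8 and 221 FPKM). Macrophages are known to express LPL and CD36, and the part of such cells in these values was not tested. The 5 endothelial markers found in the table summed to 234.1 and 210.3 FPKM in GFP+mCherry+ cells of day 40, against 224.7, 39.3 and 66.9 FPKM at day 25, and 0 of the 4 tested were called between the days. The 6 adipocyte markers summed to 10.4 FPKM or less in every library, and of these LEP was listed at 0 in 16 libraries and ADIPOQ in 8.

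In GFP-mCherry+ cells 4 members fell between the days, where 3.91% of tested genes fell, and 0 rose, where 0.633% rose (4.55% in either direction). ECI1 fell to 54.3, 24.4 and 34.7 FPKM at day 40, against 80.5, 106.4 and 94.2 FPKM at day 25 (-1.35 ± 0.24, SE, limma adjusted p = 0.00793). ACADS fell to 11.7, 4.16 and 3.60 FPKM at day 40, against 17.2, 19.7 and 19.9 FPKM at day 25 (-1.57 ± 0.31, adjusted p = 0.0118), without overlap between the days in either gene. ETFB and SLC27A1 fell by 1.04 ± 0.27 and 0.95 ± 0.26 (adjusted p = 0.0385 and 0.0437). In GFP+mCherry+ cells ETFB fell by 1.13 ± 0.30 (adjusted p = 0.0490), and in GFP-mCherry- cells ECI1 fell by 1.01 ± 0.24 (adjusted p = 0.0268), the 1 member called there, where 2.32% of tested genes fell and 1.56% rose (3.87% in either direction). The counts of falls were lower when any of several single libraries was left out. That in GFP-mCherry+ cells was 1 without library 5, 14 or 17 and 2 without library 2 or 8. The count in GFP+mCherry+ cells was 0 without library 4 or 7, and that in GFP-mCherry- cells was 0 without library 3, 6, 9, 12 or 18.

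The members called as falling between the days have GC-rich transcripts, but not all GC-rich members were called. ECI1, ACADS, SLC27A1 and ETFB have a transcript GC content of 64.6%, 64.5%, 62.8% and 56.5%, where the median is 47.2% over the members and 50.2% over the tested genes. ECHS1, ACADVL, CPT1B and ACAA1, at 60.3%, 59.3%, 58.4% and 57.9%, were not called between the days in any population. Across the 33 members the change between the days in GFP-mCherry+ cells ran against GC content with a Pearson r of -0.74 and a Spearman rho of -0.67, and across all 14606 tested genes with a GC content r was -0.57 and rho was -0.56. In GFP+mCherry+ cells r was -0.52 over the members and -0.34 over all genes, and in GFP-mCherry- cells -0.42 and -0.18. These are correlations across genes that share the same libraries, and genes are not independent replicates. After each library was corrected for transcript GC content by loess, added after seeing the data, none of the falls of the 3 populations passed, and the change in GFP-mCherry+ cells was -0.48 for ECI1 (adjusted p = 0.262), -0.71 for ACADS (0.234), -0.24 for SLC27A1 (0.737) and -0.83 for ETFB (0.159).

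**Figure D5:**
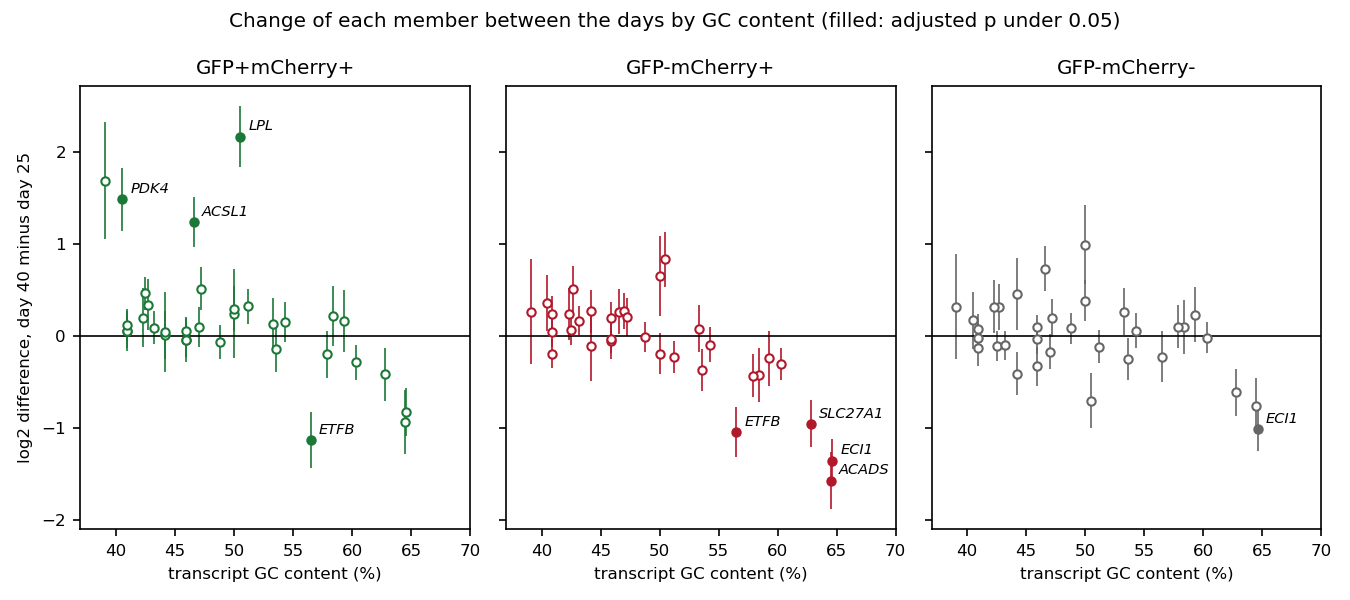
Difference between day 40 and day 25 on the log2(FPKM + 1) scale, with limma's standard error as bars, against the GC content of the transcript in percent for the 33 members in each population. Filled points passed at an adjusted p under 0.05 and are named. The 3 members with the highest GC content, ECI1, ACADS and SLC27A1, lie below 0 in all 3 panels.

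Under the same GC correction 24 members were lower in GFP+mCherry+ than in GFP-mCherry+ cells at day 25 and 14 at day 40. Over all genes in that fit, 1705 were lower at day 25 and 2272 at day 40, beside 1244 and 1379 without the correction. PDK4 did not pass at day 25 with it (0.88, adjusted p = 0.0527). The genes of neighbouring steps that follow come from lists written with earlier results of these data known. Their counts stand beside 8.38% of tested genes lower and 12.0% higher in GFP+mCherry+ than in GFP-mCherry+ cells at day 25. At day 40 these shares were 9.29% and 16.2%. Counts of a few genes in such short lists are not read as results about the lists.

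Of 11 other genes of uptake and binding tested, 2 were higher and 2 lower in GFP+mCherry+ than in GFP-mCherry+ cells of day 25, and 1 was higher and 2 lower at day 40. GOT2, the mitochondrial aspartate aminotransferase that also serves as a fatty acid-binding protein of the plasma membrane, was lower by 0.80 ± 0.19 at day 25 and by 1.06 ± 0.21 at day 40 (SE, limma adjusted p = 0.00785 and 0.00221). VLDLR, a receptor of triglyceride-rich lipoproteins, was higher by 0.67 ± 0.19 and 0.64 ± 0.21 (adjusted p = 0.0208 and 0.0347). Of 9 other acyl-CoA synthetases and thioesterases tested, 1 was higher and 1 lower at day 25, and 3 were higher and 1 lower at day 40. ACSS1, the mitochondrial acetyl-CoA synthetase, was higher by 1.04 ± 0.30 and 1.66 ± 0.34 (adjusted p = 0.0241 and 0.00264), and the thioesterase ACOT13 was lower by 0.95 ± 0.24 and 0.98 ± 0.26 (adjusted p = 0.0114 and 0.0134).

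Among 9 genes of carnitine supply and malonyl-CoA, of which 8 were tested, 2 were lower and 0 higher in GFP+mCherry+ than in GFP-mCherry+ cells of day 25, and 0 were lower and 1 higher at day 40, which was SLC22A5, the carnitine transporter of the cell membrane (1.09 ± 0.31, SE, limma adjusted p = 0.0165). ACACB, the mitochondrial acetyl-CoA carboxylase whose product malonyl-CoA inhibits CPT1, was at 17.5 ± 7.27 FPKM in GFP+mCherry+, 41.3 ± 3.05 FPKM in GFP-mCherry+ and 2.85 ± 0.317 FPKM in GFP-mCherry- cells of day 25 (SD, n = 3 each). It was lower by 1.28 ± 0.30 in GFP+mCherry+ than in GFP-mCherry+ cells of day 25 (SE, limma adjusted p = 0.00781). At day 40 ACACB was at 21.8 ± 3.09 FPKM in GFP+mCherry+ (n = 2) and 41.5 ± 6.66 FPKM in GFP-mCherry+ cells (n = 3) and did not pass. CRAT, carnitine acetyltransferase, was lower by 0.92 ± 0.20 at day 25 (adjusted p = 0.00563) and did not pass at day 40. ACACB was thus highest in GFP-mCherry+ and lowest in GFP-mCherry- cells, the order that FABP3 also had.

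Among 9 other mitochondrial acyl-CoA enzymes tested, 4 were lower in GFP+mCherry+ than in GFP-mCherry+ cells at day 25 and 3 at day 40, with 0 higher. These were PCCA and PCCB, the subunits of propionyl-CoA carboxylase, and HSD17B10 at both days, and IVD of leucine breakdown at day 25. Of 12 peroxisomal genes tested, ECH1 was the 1 that was lower, at both days (-0.82 ± 0.26 and -1.21 ± 0.29, SE, limma adjusted p = 0.0370 and 0.00725). That count is near the share of all tested genes that were lower, 8.38% and 9.29% at the 2 days. Of 5 ketone body genes, OXCT1, which activates ketone bodies for oxidation, was the 1 that was lower. OXCT1 was at 28.9 ± 4.64 FPKM in GFP+mCherry+, 62.3 ± 4.19 FPKM in GFP-mCherry+ and 15.5 ± 3.99 FPKM in GFP-mCherry- cells of day 25 (SD, n = 3 each). Its difference between the mCherry+ populations was -1.09 ± 0.23 at day 25 and -1.50 ± 0.26 at day 40 (adjusted p = 0.00453 and 0.000944).

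Lipid storage genes went in both directions. Of 13 genes of lipid droplets and lipolysis tested, 4 were lower and 1 higher in GFP+mCherry+ than in GFP-mCherry+ cells of day 25, and 2 were lower and 1 higher at day 40. PLIN2, the droplet coat protein that is common to most cells, was at 68.1 ± 4.83 FPKM in GFP+mCherry+, 29.2 ± 8.41 FPKM in GFP-mCherry+ and 35.9 ± 8.97 FPKM in GFP-mCherry- cells of day 25 (SD, n = 3 each). It was higher than in GFP-mCherry+ cells by 1.23 ± 0.26 at day 25 and by 1.62 ± 0.29 at day 40 (SE, limma adjusted p = 0.00494 and 0.00134). FITM1, a droplet-forming protein of muscle, was at 12.3 ± 6.37 FPKM in GFP+mCherry+ and 141.5 ± 24.8 FPKM in GFP-mCherry+ cells of day 25, lower by 3.55 ± 0.60 (adjusted p = 0.00127). PLIN5, the droplet protein of oxidative tissues, was lower by 1.02 ± 0.29 at day 25 (adjusted p = 0.0199).

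Of 22 other regulators tested, 6 were lower and 2 higher in GFP+mCherry+ than in GFP-mCherry+ cells at day 25, and 5 were lower and 3 higher at day 40. RXRG, a partner receptor of PPARs, was lower by 1.39 ± 0.40 at day 25 (SE, limma adjusted p = 0.0218). PPARG, the receptor of fat cell formation, which is also known from macrophages, was at 6.31 ± 5.00 FPKM (n = 2) in GFP+mCherry+ and 0.907 ± 0.522 FPKM (n = 3) in GFP-mCherry+ cells of day 40 (SD), higher by 1.78 ± 0.35 (adjusted p = 0.0023). Library 13 held 9.85 FPKM of PPARG and library 10 held 2.77 FPKM, and GFP-mCherry- libraries of day 40 held 4.36, 4.77 and 3.07 FPKM. The part of macrophages in these values was not tested. Of 11 tested genes of fatty acid synthesis and desaturation, 0 were lower and 1 was higher at day 25, the elongase ELOVL1 (1.07 ± 0.23, adjusted p = 0.00574). At day 40 ELOVL1, the desaturase SCD and the malic enzyme ME1 were higher, by between 1.04 and 1.07.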

How the data were processed

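Per the labels, RNA of sorted cells was sequenced after a TruSeq library preparation. The submitters' processing notes name bcl2fastq 2.19, cutadapt, STAR 2.5.2b, Cufflinks 2.1.1 and the hg19 build. The authors deposited 1 table of 20368 rows with FPKM values per gene and library, made with Cufflinks per the submitters' processing notes; the unit was inferred from that tool and the values. Depth is unknown, so no counting interval is given. Library sums of FPKM ran from 566029 to 660085. Rows of the same name were merged to 20218 genes. The 14845 genes at 1 FPKM or more in 2 or more libraries were fitted as log2(FPKM + 1) with limma 3.58.1 (R 4.3.3), trend and empirical Bayes, over the 6 group means of all 17 libraries, with Benjamini-Hochberg adjustment within each of 11 comparisons and of a later one. The added 1 understates changes of low genes. The scripts were tested on simulated data. The members and lists were chosen with earlier results of these data known. Beyond the members, up to 4 called genes of each list, those of smallest adjusted p, could be named. Alternatives were the pseudocount, the filter, the scaling, sample weights, the groups fitted, a library block, a GC correction and leaving out libraries.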

Additional observations from a re-analysis of the deposited data

Results flagged for a closer look

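LPL was flagged because its difference between 2 populations changed between the days, as tested by an interaction that was added after the values had been seen. GFP+mCherry+ minus GFP-mCherry- was 1.98 at day 40 and -0.89 at day 25 on the log2(FPKM + 1) scale, a change of 2.87 ± 0.45 (SE, limma adjusted p = 0.00561). The change ran between 2.60 and 4.11 over the 21 alternatives, with adjusted p between 0.00345 and 0.0360, and passed in all of them. Both GFP+mCherry+ libraries of day 40 lay above every GFP-mCherry- library of that day. The 6 macrophage markers summed to between 23.3 and 35.0 FPKM in GFP-mCherry+ cells of day 40. LPL was there at 4.49, 7.83 and 6.59 FPKM. The markers summed to 172.3 and 75.8 FPKM in the GFP+mCherry+ libraries of day 40. Endothelial markers summed to 234.1 and 210.3 FPKM in these libraries, against between 74 and 150 FPKM in GFP-mCherry- cells of day 40, with 0 of 4 tested called. The part of either in the change was not tested.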

How the results depend on the processing

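The groups share no replicate numbers. Blocking by runs of 3 neighbouring library numbers, which the labels do not describe as pairs, gave 1 member higher and 20 lower for GFP+mCherry+ against GFP-mCherry+ cells at day 25 and 1 and 13 at day 40, within 1.5 times the counts without it, as were its counts for the other populations. Of 6963 member values under the alternatives, 6651 kept their side of the threshold, 220 were no longer called, 92 were newly called and 0 reversed. The causes were not tested. Counts follow for members called.
Between GFP+mCherry+ and GFP-mCherry+ cells of day 25, 0 were higher under quantile normalization or GC correction, and 27 were lower with sample quality weights, which took the count over all genes to 3263, beside 1244 without; at day 40, 3 were lower when only the compared groups were fitted and 4 without libraries 13 and 14. Between GFP-mCherry+ and GFP-mCherry- cells of day 25, 1 was lower with weights. Between GFP+mCherry+ and GFP-mCherry- cells of day 25, 2 were lower with a pseudocount of 0.1, quantile normalization or GC correction, and 11 were higher and 4 lower with weights, which gave 3066 and 3072 over all genes, beside 858 and 783 without; at day 40, 3 were higher with only the compared groups or without libraries 13 and 14. Between the days in GFP+mCherry+ cells, 0 fell with a pseudocount of 0.1, no filter, median-of-ratios scaling, a 5 FPKM filter, GC correction, only these groups or without libraries 13 and 14, 2 fell with weights, and 1 rose with only these groups. In GFP-mCherry+ cells, 2 fell without a filter, with median-of-ratios scaling or quantile normalization, 0 with GC correction or only these groups, and 1 without libraries 13 and 14, and 1 rose with weights. In GFP-mCherry- cells, 1 rose with weights or only these groups, and 0 fell with GC correction.
Leaving out 1 library gave between 0 and 1 higher and between 9 and 13 lower for GFP+mCherry+ against GFP-mCherry+ cells at day 25, and between 1 and 2 higher and between 1 and 11 lower at day 40. It gave between 16 and 22 and between 16 and 19 higher for GFP-mCherry+ against GFP-mCherry- cells at the 2 days. It gave 2 higher and between 0 and 1 lower for GFP+mCherry+ against GFP-mCherry- cells at day 25, and between 2 and 6 higher at day 40. Between the days it gave between 1 and 3 that rose and between 0 and 1 that fell in GFP+mCherry+, between 1 and 4 that fell in GFP-mCherry+ and between 0 and 1 in GFP-mCherry- cells. Where GFP+mCherry+ cells of day 40 keep 1 library, it is assumed to vary like the other groups. The unknown depth limits what can be said of members near 1 FPKM, LPL, PDK4 and CPT1A. The same holds for PPARGC1A in GFP-mCherry- cells, where it was between 0.912 and 3.28 FPKM over both days.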
